A study of Mus musculus with 9 samples.

Results

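Integrins, laminins and the other main components of the basement membrane were followed from E14 mouse embryonic stem cells (ESCs) into embryoid bodies, the aggregates in which ESCs differentiate. The genes were 44 in number and were chosen by name: the integrin subunits, the laminin chains, the type IV collagen chains, the nidogens and perlecan. Probe sets were taken where the array annotation paired them with that gene symbol alone, and where a gene had several, the one that read highest on average across the 9 arrays stood for it. In all, 43 of the 44 genes had such a probe set, out of 18193 genes measured, and Itga11 was not analysed here. The arrays, a whole-genome Affymetrix mouse design, held RNA of embryoid bodies on 5 (labelled EB1, EB3, EB5, EB7 and EB9) and of undifferentiated ESCs on 4 (labelled ES2, ES6, ES8 and ES10). Both groups came from E14 cells. No treatment is named, and the age of the embryoid bodies and the way they were made are not given in the sources used here. The study used the ESC arrays to ask how the expression of a gene bears on the chance that a gene-trap vector lands in it. It called those 4 arrays biological replicates and did not mention the embryoid body arrays, so the p-values below measure only the spread between these samples.

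A basement membrane is the thin sheet of matrix on which epithelia rest and which wraps muscle and vessels. Laminins, each built of an alpha, a beta and a gamma chain, form one network of the sheet and type IV collagen forms another, while nidogens and the heparan sulphate proteoglycan perlecan tie the networks together. Cells hold the sheet through integrins, receptors of one alpha and one beta subunit that link laminin, collagen or fibronectin outside the cell to actin inside it. The first basement membranes of the mouse embryo form around implantation, and embryoid bodies lay one down beneath their outer endoderm.

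In embryoid bodies 3 chains of type IV collagen, Lama1, Nid1 and the integrin subunits Itga8, Itgb8, Itgb5 and Itgav were higher than in ESCs by 2.02-fold to 22.5-fold, with the collagen chain Col4a5 at the top. Lama5, Itga3 and Nid2 were lower by 1.66-fold to 2.11-fold. Of the 43 genes, 11 rose, 5 fell and 27 did not pass the test (limma, adjusted p under 0.05 over all probe sets). Among all 18193 genes 15.7% rose and 14.7% fell by the same test. With a difference of at least 2-fold also required, 9 of the 43 rose and 1 fell, against 5.88% and 3.63% of all genes. Arrays of the groups did not overlap for 19 of the 43, of which 16 were called, and they did not overlap for 35.0% of all genes. A mean under log2 4 in both groups, near the floor of the scale, was found for 16 of the 43. The other 27 held 11 of the rises and 4 of the falls, against 23.4% and 21.0% of all genes above that floor. The median difference (embryoid body minus ESC) was -0.02 on the log2 scale over the 43 genes and -0.04 over all genes.

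**Figure D1:**
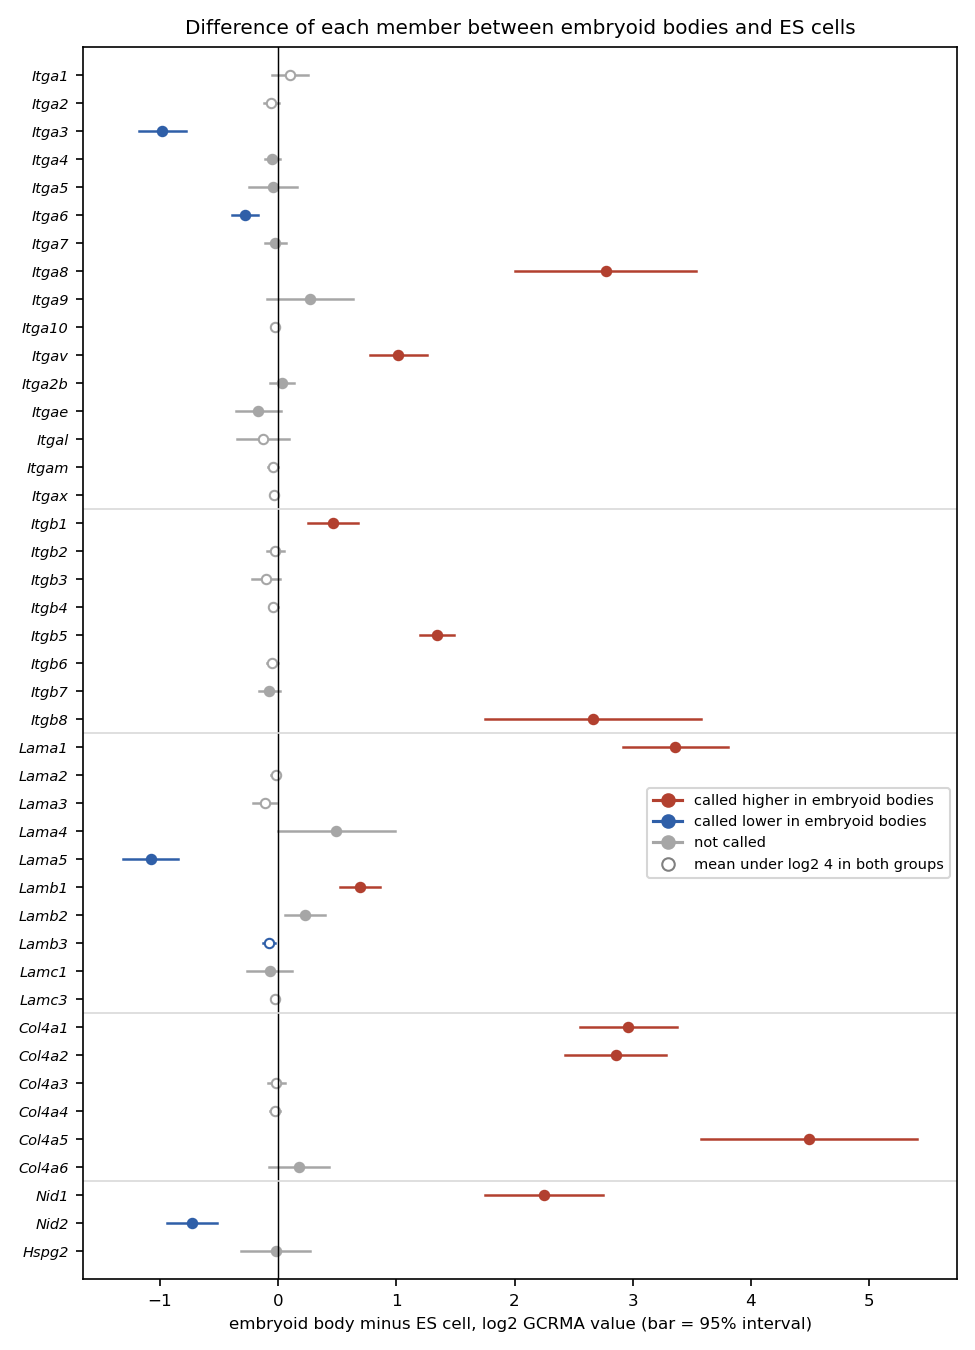
Difference between embryoid bodies and ESCs for the 43 genes (horizontal axis, log2 units; points are fitted differences and bars 95% intervals), ordered by family from integrin alpha subunits at the top to nidogens and perlecan at the bottom. Filled red points (11) were called higher in embryoid bodies, blue points (5) lower and grey points (27) neither, and open points had a mean under log2 4 in both groups. Most genes sit near 0 while Col4a5, Lama1, Col4a1, Col4a2, Itga8, Itgb8 and Nid1 stand more than 2 log2 units to the right.

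The arrays were alike in scale. Their medians lay between log2 4.01 and 4.09, and pairs of embryoid body arrays correlated at 0.9966 to 0.9986 across probe sets, pairs of ESC arrays at 0.9953 to 0.9978 and mixed pairs at 0.968 to 0.977. Within either group, arrays numbered 1 to 6 resembled each other more than they resembled arrays numbered 7 to 10, and the labels do not say what the numbers mean. Markers of pluripotent cells checked the labels: 8 of 10 fell and 1 rose, and their summed level on the linear scale was 3936 to 7489 in embryoid bodies against 37115 to 39771 in ESCs. Markers of differentiated cells were higher in embryoid bodies in 6 of 8 genes for heart and skeletal muscle (summed level 13224 to 15715 against 264 to 503), 7 of 8 for mesenchyme (10426 to 11210 against 359 to 955), 5 of 11 for endoderm (1621 to 1758 against 494 to 570), 5 of 7 for endothelium (329 to 434 against 180 to 204) and 3 of 7 for blood (2191 to 8241 against 258 to 375). Defining markers near the floor in both groups were Myog, Thy1, Apoa1, Thbd, Cdh5, Tie1, Ptprc, Gp9 and Map2. Of these only Cdh5 and Tie1 were called, so that 3 of the 5 endothelial rises lay above the floor. The myeloid markers gave 0 calls of 5 in limma (1 lower at an unadjusted p under 0.05), with summed levels of 94.2 to 97.7 against 93.2 to 99.9. Trophoblast markers had 1 rise and 1 fall of 5 (808 to 977 against 1100 to 1248) and neural markers 1 rise and 2 falls of 7 (514 to 757 against 668 to 742). The part of these cell types in the results was not tested, and in such bulk RNA fewer cells of a type and less RNA per cell cannot be told apart.

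Among the laminins, Lama1 rose and Lama5 fell. Lama1 (chr17:67697127-67822645, GRCm38.p6), the alpha chain of the first laminin of the embryo, measured 8.22, 8.51, 8.15, 8.20 and 8.38 in EB1, EB3, EB5, EB7 and EB9 and 4.55, 4.57, 5.09 and 5.52 in ES2, ES6, ES8 and ES10 (log2 GCRMA values, in this array order throughout). Every embryoid body array lay far above every ESC array, and the ESC arrays ES8 and ES10 lay above ES2 and ES6. The difference was 3.36 ± 0.20 (log2, SE), or 10.3-fold, with an adjusted p of 3.1e-06. Lama5 (chr2:180176373-180225904), the alpha chain found in most later basement membranes and in laminin made by ESCs, measured 8.67, 9.03, 8.82, 8.55 and 8.77 in embryoid bodies against 9.88, 10.02, 9.81 and 9.68 in ESCs. The groups did not overlap, and the level fell by 1.08 ± 0.10 (log2, SE), or 2.11-fold (adjusted p = 5.88e-05). A second probe set for Lama5 was also called lower and the third was not.

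Of the beta and gamma chains that pair with both alpha chains, Lamb1 rose and Lamc1 did not pass the test. Lamb1, the beta chain of these early laminins, measured 10.53, 10.74, 10.49, 10.57 and 10.49 in embryoid bodies and 9.86, 10.03, 9.87 and 9.72 in ESCs. All embryoid body arrays were higher, by 0.69 ± 0.07 (log2, SE) or 1.62-fold (adjusted p = 0.000118), and 3 of its 4 probe sets were called higher. Lamc1, the gamma chain shared by nearly all laminins, measured 8.99, 9.18, 8.72, 9.05 and 9.02 in embryoid bodies and 9.08, 9.03, 9.07 and 9.07 in ESCs. These values overlapped, with a difference of -0.07 (95% interval -0.26 to 0.12), so changes of the size seen in Lama1 and Lama5 lie outside this interval.

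The remaining laminin chains were low or did not pass the test. Lama4, a chain of vessel and muscle basement membranes, measured 5.67, 5.64, 5.29, 4.69 and 4.71 in embryoid bodies against 4.70, 4.71, 4.70 and 4.72 in ESCs (adjusted p = 0.101). EB1, EB3 and EB5 stood above every ESC array while EB7 and EB9 did not, and the fit on arrays 1 to 6 alone called Lama4 higher by 0.83 (adjusted p = 0.0121). Summed marker levels separated the same embryoid body arrays for 6 of 9 lists. The share of all genes split this way was not counted. Over all probe sets, too, embryoid body arrays correlated at 0.9983 to 0.9986 within these subsets and 0.9966 to 0.9975 between them. Blood markers summed to 7641 to 8241 in EB1, EB3 and EB5 and to 2191 to 2440 in EB7 and EB9, a split carried by the embryonic globins Hbb-bh1 and Hba-x, since the platelet gene Pf4 read 7.96, 8.15, 8.32, 8.33 and 8.23. The sums were also higher in EB1, EB3 and EB5 than in EB7 and EB9 for pluripotent cells (6066 to 7489 and 3936 to 4839), endothelium (344 to 434 and 329 to 336), trophoblast (897 to 977 and 808 to 854) and, by a small margin, myeloid cells (95.1 to 97.7 and 94.2 to 94.7). For neural cells they were lower (514 to 535 and 694 to 757). The part of any of these in the level of Lama4 was not tested. Lamb2, the beta chain of synaptic and kidney laminins, averaged 8.73 ± 0.10 in embryoid bodies and 8.50 ± 0.13 in ESCs (SD, n = 5 and n = 4). It missed the threshold at an adjusted p of 0.0635. Under some other settings Lamb2 was called higher, as with a filter on low values (adjusted p = 0.0345), so its call depended on the processing. Lama2, Lama3 and Lamc3 lay near the floor in both groups and were not called. Lamb3, a chain of the laminin beneath epidermis, was also near the floor, at 2.72 to 2.83 in embryoid bodies against 2.84 to 2.89 in ESCs. Its small fall of 0.08 just passed (adjusted p = 0.0444) and was lost under most other settings. Of the 16 genes near the floor, 15 had a slightly lower mean in embryoid bodies, and their differences ran from -0.13 to 0.10.

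Of the 6 chains of type IV collagen 3 rose, and 3 did not pass the test. Col4a1 and Col4a2, which assemble with each other into the collagen IV of nearly every basement membrane, rose together. Col4a1 measured 12.16, 12.22, 12.09, 12.46 and 12.33 in embryoid bodies and 8.97, 8.88, 9.77 and 9.52 in ESCs. This put every embryoid body array above every ESC array, by 2.96 ± 0.18 (log2, SE) or 7.8-fold (adjusted p = 3.87e-06). Col4a2 measured 10.38, 10.48, 10.49, 10.67 and 10.69 in embryoid bodies and 7.30, 7.33, 8.23 and 7.88 in ESCs, a difference of 2.86 ± 0.19 or 7.24-fold (adjusted p = 5.95e-06). In both genes ES8 and ES10 were the higher ESC arrays. The genes lie head to head on chromosome 8, Col4a1 on the minus strand at chr8:11198423-11312889 and Col4a2 on the plus strand at chr8:11312805-11449287 (RefSeq, GRCm38.p6). Their listed transcript starts, at 11312826 and 11312805, are 21 bases apart. The span given for Col4a1 runs past its listed start, and the spans of the genes overlap there. The stretch that holds both starts is shown, on the plus strand, with its GC box (GGGCGG) in capitals.
chr8:11312801-11312830: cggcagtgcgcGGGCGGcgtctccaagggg

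Col4a5, on the X chromosome, had the largest difference of the 43 genes. It assembles either with Col4a3 and Col4a4, as in the kidney filter, or with Col4a6, as in smooth muscle and skin. It measured 8.63, 8.79, 8.69, 8.78 and 8.89 in embryoid bodies and 3.37, 3.38, 5.15 and 5.16 in ESCs. The embryoid body arrays were tightly grouped, while ES2 and ES6 sat under the floor of log2 4 and ES8 and ES10 above it. The difference was 4.49 ± 0.40 (log2, SE), or 22.5-fold (adjusted p = 4e-05), and the other probe set for Col4a5 was also called higher, by 1.49. Col4a6 measured 5.33, 4.83, 5.13, 4.8 and 4.83 in embryoid bodies and 4.82, 4.74, 4.83 and 4.85 in ESCs, with overlapping groups and a difference of 0.18 (95% interval -0.08 to 0.43). EB3, EB9 and ES8 read the same value, 4.8285, and the other Col4a6 probe set averaged 2.53 and 2.52. The level of Col4a6 may therefore be background of the probe set, which was not tested. Col4a3 and Col4a4 stayed near the floor in both groups, at means of 3.67 and 3.02 in embryoid bodies against 3.68 and 3.05 in ESCs. Of the 6 collagen IV chains, then, the partners that Col4a5 is known to assemble with did not pass the test.

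Col4a5 and Col4a6 are also head to head, at chrX:141475370-141689236 on the plus strand and chrX:141165403-141474095 on the minus strand, but their listed starts are 1343 bases apart. The bases just before each gene are shown because one gene rose and the other did not pass the test. A CCAAT box is in capitals, and neither stretch holds another match to the motifs described next.
Col4a5, chrX:141475169-141475369, plus strand: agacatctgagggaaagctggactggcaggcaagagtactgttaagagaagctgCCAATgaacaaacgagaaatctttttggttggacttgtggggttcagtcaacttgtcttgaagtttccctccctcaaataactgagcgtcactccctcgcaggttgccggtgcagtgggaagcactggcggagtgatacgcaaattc
Col4a6, chrX:141474096-141474326, minus strand: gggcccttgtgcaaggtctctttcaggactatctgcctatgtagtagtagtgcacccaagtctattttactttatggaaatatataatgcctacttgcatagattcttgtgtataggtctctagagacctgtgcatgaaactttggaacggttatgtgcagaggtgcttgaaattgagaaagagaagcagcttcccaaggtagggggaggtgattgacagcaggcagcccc

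A promoter window (250 bases before to 50 after the listed start, RefSeq, GRCm38.p6) was found for 29 of the 44 genes. Searched on both strands, GGGCGG was in 17 of the 29 windows and in 35.9% of all 27025 windows of that length. CCAAT was in 7 of the 29 against 37.9% of all, and 6 of these 7 belonged to the 10 genes called higher that had a window. GGGCGG was in 8 of those 10. Of the 3 genes called lower with a window, 2 held GGGCGG and 0 held CCAAT. The windows of Col4a1 and Col4a2, with starts 21 bases apart, overlap and are not separate stretches. TATAAA was in 0 of the 29 against 14.2% of all. No motif is contained in another. These are matches of letters and say nothing of binding.

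**Figure D2:**
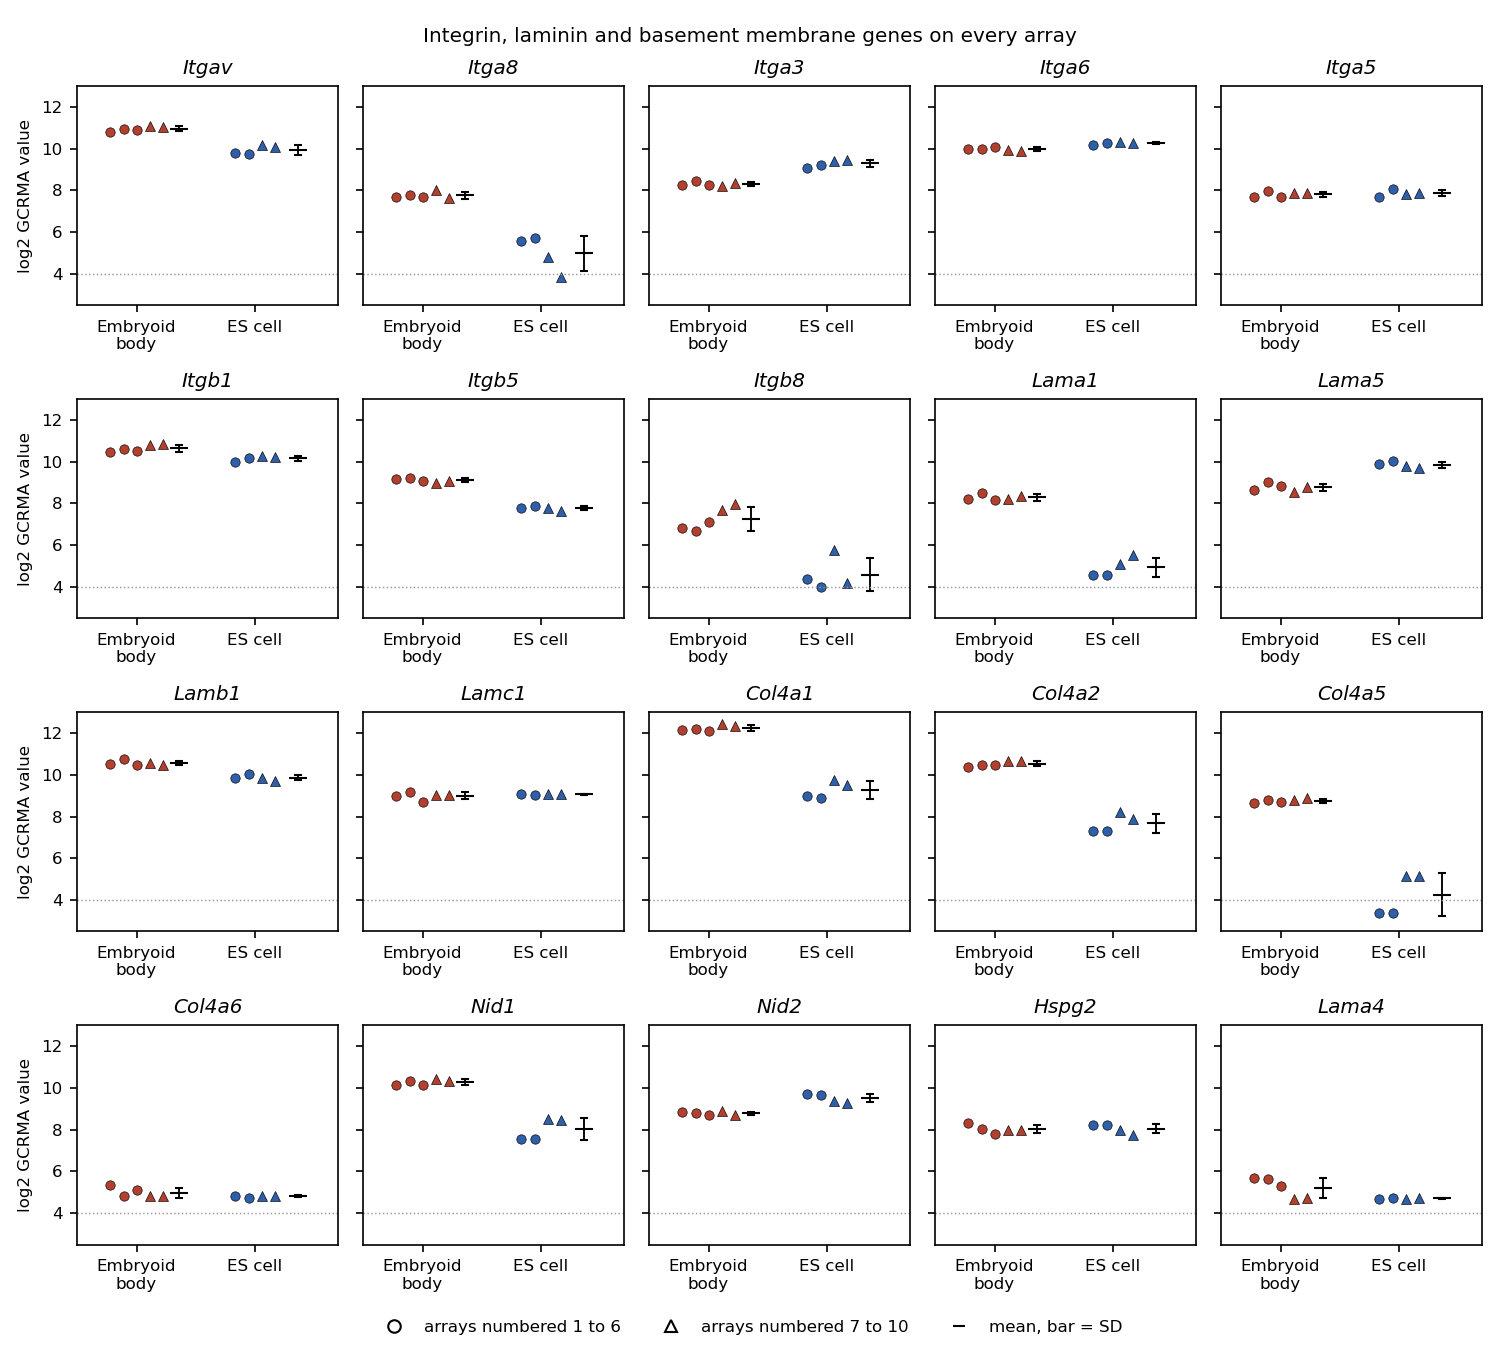
log2 GCRMA value (vertical axis) of 20 integrin, laminin, collagen IV, nidogen and perlecan genes on every array, embryoid bodies in red on the left of each panel and ESCs in blue on the right, with the mean and SD as a bar (n = 5 and n = 4). Circles are arrays numbered 1 to 6 and triangles arrays numbered 7 to 10, and the dotted line marks log2 4. In Col4a1, Col4a2, Col4a5, Lama1 and Nid1 the embryoid body arrays are tightly grouped and the ESC arrays 8 and 10 lie above ESC arrays 2 and 6.

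The nidogens, which bridge laminin and collagen IV, moved in opposite directions. Nid1 measured 10.13, 10.36, 10.12, 10.43 and 10.36 in embryoid bodies and 7.56, 7.56, 8.51 and 8.47 in ESCs. All embryoid body arrays were higher, by 2.25 ± 0.22 (log2, SE) or 4.76-fold (adjusted p = 6.77e-05), and 2 of its 3 probe sets were called. Nid2 measured 8.84, 8.80, 8.69, 8.88 and 8.71 in embryoid bodies against 9.72, 9.66, 9.38 and 9.30 in ESCs, with no overlap. Nid2 fell by 0.73 ± 0.09 (log2, SE; adjusted p = 0.000366), a 1.66-fold difference. Hspg2 (perlecan) measured 8.34, 8.05, 7.82, 7.97 and 7.98 in embryoid bodies and 8.23, 8.24, 8.0 and 7.74 in ESCs, overlapping throughout, with a difference of -0.02 (95% interval -0.32 to 0.27).

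Because some chains rose while close relatives fell, pairs were also compared within each array. A level of one probe set cannot be set against that of another, so only the change of such a ratio between groups is read. The 4 pairs were chosen after their values were seen, so the ratios are a description and carry no test. Lama1 over Lama5 was -0.47 ± 0.13 in embryoid bodies and -4.91 ± 0.59 in ESCs (log2, SD, n = 5 and n = 4), a difference of 4.44. For Nid1 over Nid2 the values were 1.49 ± 0.14 in embryoid bodies and -1.49 ± 0.74 in ESCs, a difference of 2.98. For Col4a5 over Col4a6 they were 3.77 ± 0.33 and -0.54 ± 1.0, a difference of 4.31. This mostly restates the Col4a5 difference of 4.49, as Col4a6 differed by only 0.18. In these 3 pairs the arrays of the groups did not overlap, which the members' own values already fixed. Col4a1 over Col4a2, the pair with adjoining starts, was 1.71 ± 0.09 in embryoid bodies and 1.6 ± 0.06 in ESCs, a difference of 0.11 with overlapping arrays.

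**Figure D3:**
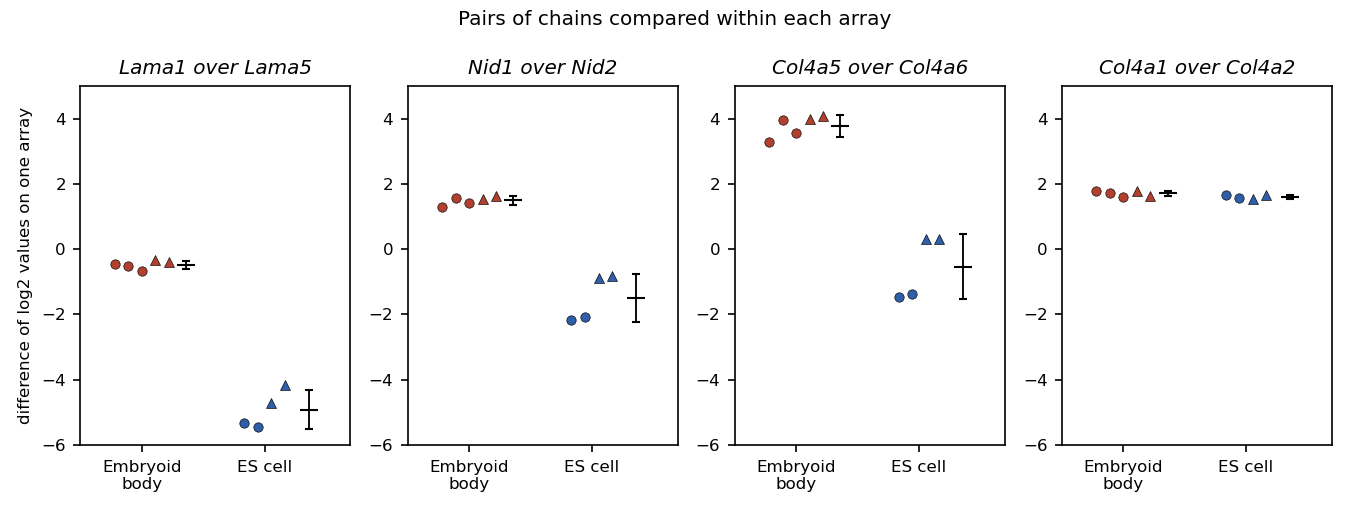
Difference of the log2 values of 2 chains on the same array (vertical axis, log2 units) for 4 pairs, embryoid bodies in red on the left and ESCs in blue on the right, with mean and SD as a bar (n = 5 and n = 4; circles are arrays 1 to 6, triangles arrays 7 to 10). The groups are 4.44, 2.98 and 4.31 log2 units apart in the first 3 panels and overlap in the panel of Col4a1 over Col4a2, where they are 0.11 apart.

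Of the 24 integrin subunits measured, 5 rose (20.8%) and 2 fell (8.33%), against 15.7% and 14.7% of all genes, so that the share that rose was near that of all genes. Itgb1, the beta subunit of most laminin, collagen and fibronectin receptors, measured 10.47, 10.59, 10.51, 10.78 and 10.85 in embryoid bodies and 10.002, 10.19, 10.27 and 10.23 in ESCs. The groups did not overlap but were close, 0.47 ± 0.09 apart (log2, SE; adjusted p = 0.00551). Of its 6 probe sets 2 were called higher and 3 had a mean above the floor in either group. Averaged over all 6, the difference was 0.12 and was not called (adjusted p = 0.0961).

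The alpha subunits that make laminin receptors with Itgb1 were lower or did not pass. Itga6 measured 9.98, 9.97, 10.10, 9.94 and 9.91 in embryoid bodies against 10.18, 10.27, 10.30 and 10.29 in ESCs. Its arrays did not overlap, and it fell by 0.28 ± 0.05 (log2, SE; adjusted p = 0.00268), although its other probe set gave no call (-0.05, adjusted p = 0.701). Itga3 measured 8.28, 8.46, 8.25, 8.23 and 8.35 in embryoid bodies against 9.09, 9.21, 9.40 and 9.47 in ESCs, so that all embryoid body arrays were lower. The fall was 0.98 ± 0.09 (log2, SE), or 1.97-fold (adjusted p = 3.64e-05), and all 3 probe sets for Itga3 were called lower. Itga7, the laminin receptor of muscle, averaged 6.47 ± 0.02 in embryoid bodies and 6.49 ± 0.01 in ESCs and was not called. Its readings were nearly constant over all arrays and may be background of the probe set, which was not tested.

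Itgav, Itgb5, Itgb8 and Itga8 belong to receptors for the RGD motif of fibronectin, vitronectin and related ligands, and all of these rose. Itga5, Itgb3, Itgb6 and Itga2b, which belong to such receptors too, did not pass the test. Itgav measured 10.80, 10.93, 10.88, 11.09 and 11.05 in embryoid bodies and 9.77, 9.73, 10.18 and 10.06 in ESCs, a difference of 1.02 ± 0.11 or 2.02-fold (adjusted p = 0.000101). Its groups were well apart, and its other 4 probe sets gave no call. Itgb5, which pairs with Itgav as a vitronectin receptor, measured 9.19, 9.21, 9.09, 8.99 and 9.09 in embryoid bodies and 7.76, 7.88, 7.77 and 7.65 in ESCs. This was the least variable of the rises, at 1.35 ± 0.06 (log2, SE) or 2.54-fold (adjusted p = 1.01e-06), with all 4 probe sets called. Itgb8, another partner of Itgav and part of an activator of latent TGF-beta, measured 6.81, 6.66, 7.09, 7.67 and 7.99 in embryoid bodies and 4.36, 4.01, 5.75 and 4.21 in ESCs. Both groups were spread, with EB7 and EB9 the highest embryoid body arrays and ES8 the highest ESC array, but they did not overlap (2.66 ± 0.40, or 6.33-fold, adjusted p = 0.00103).

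Itga8, which pairs with Itgb1 as the receptor for nephronectin, measured 7.67, 7.79, 7.69, 8.0 and 7.64 in embryoid bodies and 5.57, 5.70, 4.83 and 3.86 in ESCs. Here ES8 and ES10 were the lower ESC arrays, the reverse of Lama1 and the collagen IV chains. The difference was 2.77 ± 0.34 (log2, SE), or 6.82-fold (adjusted p = 0.000266), and the gene's second probe set read under the floor in both groups. Itga5, the alpha subunit of the main fibronectin receptor, measured 7.70, 7.99, 7.70, 7.85 and 7.85 in embryoid bodies and 7.70, 8.06, 7.84 and 7.86 in ESCs. The ranges lay on top of each other, and the difference was -0.05 (95% interval -0.25 to 0.16).

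Itga9, a receptor subunit for tenascin, depended on the probe set. The one with the highest mean gave 5.55, 5.55, 5.55, 6.35 and 5.73 in embryoid bodies and 5.52, 5.52, 5.51 and 5.38 in ESCs, where EB7 alone stood out and the difference of 0.27 was not called (adjusted p = 0.188). Another probe set for Itga9 averaged 5.21 ± 0.43 in embryoid bodies and 2.83 ± 0.35 in ESCs and was called higher by 2.38 (adjusted p = 7.61e-05). The third differed by -0.13 and was not called. The gene is therefore reported as uncertain.

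The integrins of blood cells and of stratified epithelia showed little. The 7 leukocyte and platelet subunits, Itga2b, Itgae, Itgal, Itgam, Itgax, Itgb2 and Itgb7, had means of 2.05 to 5.06 in embryoid bodies and 2.09 to 5.14 in ESCs, and 0 were called in limma (2, Itgam and Itgax, were lower at an unadjusted p under 0.05). Itgal, Itgam, Itgax and Itgb2 were near the floor in both groups, and Itga2b, Itgae and Itgb7 had means above log2 4. Itga2b read nearly the same on most arrays, at 4.32 to 4.51 in embryoid bodies and 4.32 to 4.33 in ESCs. Such constant readings may be the background of a probe set, so they do not show that a gene was expressed. Of the 5 myeloid markers measured 4 were near the floor, while Csf1r, the receptor of macrophage colony-stimulating factor, averaged 6.09 ± 0.03 in embryoid bodies and 6.07 ± 0.04 in ESCs. These Csf1r readings were nearly constant too. The collagen-binding alpha subunits Itga1, Itga2 and Itga10 were near the floor in both groups, at means of 2.22 to 3.19 in embryoid bodies and 2.24 to 3.09 in ESCs. The same was true of Itgb3, a partner of Itgav, of Itgb4, the hemidesmosome partner of Itga6, and of the epithelial Itgb6, at 2.08 to 2.35 against 2.12 to 2.40. Itga4, a receptor subunit for VCAM-1 and fibronectin, averaged 4.26 ± 0.02 in embryoid bodies and 4.31 ± 0.03 in ESCs and was not called.

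The genes that rose did not have equal values in all ESC arrays. In 7 of the 11, ES8 and ES10 both lay above ES2 and ES6 (Lama1, Col4a1, Col4a2, Col4a5, Nid1, Itgav and Itgb1). This order was found in 13.6% of all genes, and its share among all genes called higher was not counted. Itga3 and Itga6, which fell, and Col4a6, which was not called, had it too. The difference between embryoid bodies and ESCs was smaller within arrays 7 to 10 than within arrays 1 to 6 in 7 of the 11. This set held Itgb5, by a narrow margin (1.331 and 1.339), in place of Itgb1. The share of all genes with a smaller difference was not counted. For Col4a5 the difference was 3.68 within arrays 7 to 10 and 5.33 within arrays 1 to 6, for Lama1 2.99 and 3.73, and for Nid1 1.90 and 2.64. Itga8 went the other way, at 3.48 and 2.08, as did Itgb1 (0.57 and 0.43), Itgb8 and Lamb1. All 11 were called higher in both subsets of arrays and with the subset as a block. The summed mesenchyme markers followed the same split in ESCs, at 955 and 908 in ES8 and ES10 and 412 and 359 in ES2 and ES6. Among the 8 mesenchyme markers, 5 had that order on their own (Col1a1, Col1a2, Col3a1, Col5a2 and Prrx1). The sums for heart and muscle (503 and 403 in ES8 and ES10, 264 and 267 in ES2 and ES6), endothelium and trophoblast were also higher in ES8 and ES10, which made 4 of 9 marker lists. Of the 8 heart and muscle markers, however, only Actc1 had that order, at 8.42 and 8.15 in ES8 and ES10 and 6.14 and 6.91 in ES2 and ES6. The part of these markers in the levels of the genes was not tested.

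**Figure D4:**
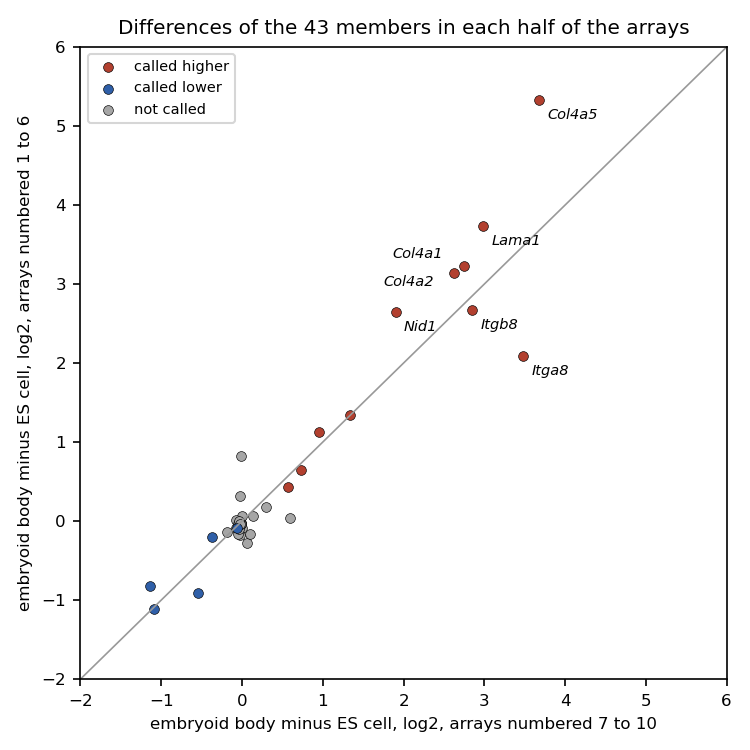
Difference between embryoid bodies and ESCs (log2 units) of the 43 genes within arrays numbered 7 to 10 (horizontal axis) and within arrays numbered 1 to 6 (vertical axis), red for genes called higher over all arrays, blue for lower and grey for neither; the line marks equal differences. Col4a5, Lama1 and Nid1 lie above the line, at 3.68, 2.99 and 1.90 across and 5.33, 3.73 and 2.64 up, and Itga8 lies below it at 3.48 and 2.08.

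Genes that work with integrins and the basement membrane were read in 6 lists, of which 87 genes had a probe set. The lists were chosen with earlier results of these data known. In all, 47 rose (54.0%) and 9 fell (10.3%), against 15.7% and 14.7% of all genes, with a median difference of 0.35 (log2) against -0.04 for all genes. Other basement membrane components, 17 genes, had 10 rises, 0 falls (1 at an unadjusted p under 0.05) and a median of 1.32. Frem2 and Frem1, parts of the Fraser complex beneath embryonic epithelia, were higher by 3.53 and 2.83, and the calcium-binding Smoc2 by 2.5. The ESC means of Frem2 and Smoc2, 3.93 and 3.52, lay under log2 4, so the sizes of these rises were read from near the floor. Nephronectin (Npnt), the ligand of the receptor that contains Itga8, measured 8.28, 8.42, 7.76, 9.25 and 8.99 in embryoid bodies and 4.51, 4.63, 5.91 and 5.12 in ESCs, a difference of 3.50 ± 0.37 (adjusted p = 0.000102). Ligand and receptor subunit were thus both higher on all embryoid body arrays. By comparison, 2669 of all 18193 genes were called higher with no overlap, and a link between Npnt and Itga8 was not tested.

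Integrin ligands outside the basement membrane, 11 genes, had 7 rises and 2 falls and a median of 0.92. Tenascin C (Tnc) rose the most, by 4.52 ± 0.43 (adjusted p = 5.7e-05), at 7.55 to 8.90 in embryoid bodies against 2.48 to 4.08 in ESCs. Its ESC mean of 3.67 lay under log2 4, so the size of the rise was read from near the floor. Vitronectin (Vtn) and Mfge8, ligands of Itgav receptors, were each higher by 1.59. Icam1, the counter-receptor of leukocyte integrins, fell by 2.86 ± 0.17 (adjusted p = 3.8e-06), and its embryoid body arrays, at 3.16 to 3.95, all read under log2 4.

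Among other laminin receptors and integrin partners, 13 genes, 7 rose and 4 fell, with a median of 0.30. Bcam, a receptor for laminins with Lama5, measured 7.72, 7.71, 7.79, 7.52 and 7.64 in embryoid bodies against 9.92, 10.04, 9.67 and 9.28 in ESCs. The difference was -2.06 ± 0.14 (adjusted p = 8.27e-06). Like Lama5 it was called lower with no overlap, as 2525 of all 18193 genes were. A link between Bcam and Lama5 was not tested. The tetraspanin Cd9, which associates with laminin-binding integrins, fell by 1.90, while the syndecans Sdc2 and Sdc1 were higher by 1.79 and 1.48. The ESC mean of Sdc2, 3.77, also lay under log2 4. In the adhesion complex inside the cell, 21 genes, 9 rose and 2 fell, with a median of 0.25. Parva was higher by 1.57, Tns1 by 1.22 and Zyx by 1.14, all actin-linked proteins of adhesion sites, and Ilk, the scaffold that binds beta subunit tails, by 0.71 ± 0.06 (adjusted p = 2.2e-05).

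The machinery that makes and crosslinks collagens, 15 genes, had 8 rises and 1 fall and a median of 0.28. The fall was of Loxl4, near the floor at means of 2.45 in embryoid bodies and 2.70 in ESCs. Other collagen genes among the mesenchyme markers, Col1a1, Col1a2, Col3a1 and Col5a2, rose too, by 2.08 to 7.85. Which collagen these genes served was not tested. Serpinh1, the collagen chaperone, was higher by 2.24, and P4ha2, a prolyl hydroxylase, by 1.36. Pxdn, the peroxidasin that crosslinks collagen IV, measured 10.34, 10.40, 10.37, 10.57 and 10.55 in embryoid bodies and 8.47, 8.52, 8.75 and 8.74 in ESCs, a difference of 1.83 ± 0.08 (adjusted p = 6.7e-07). Loxl1, a lysyl oxidase known best for elastin, was higher by 3.63. Matrix proteases and their inhibitors, 10 genes, had 6 rises, 0 falls (1, Timp1, at an unadjusted p under 0.05) and a median of 0.69. The collagenase Mmp2 was higher by 2.89, the plasminogen activator Plat by 2.64, and the inhibitors Timp2 and Timp3 by 2.45 and 2.24. The proteases Mmp3, Mmp9 and Plau did not pass the test, nor did the inhibitor Timp1 (-0.42).

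**Figure D5:**
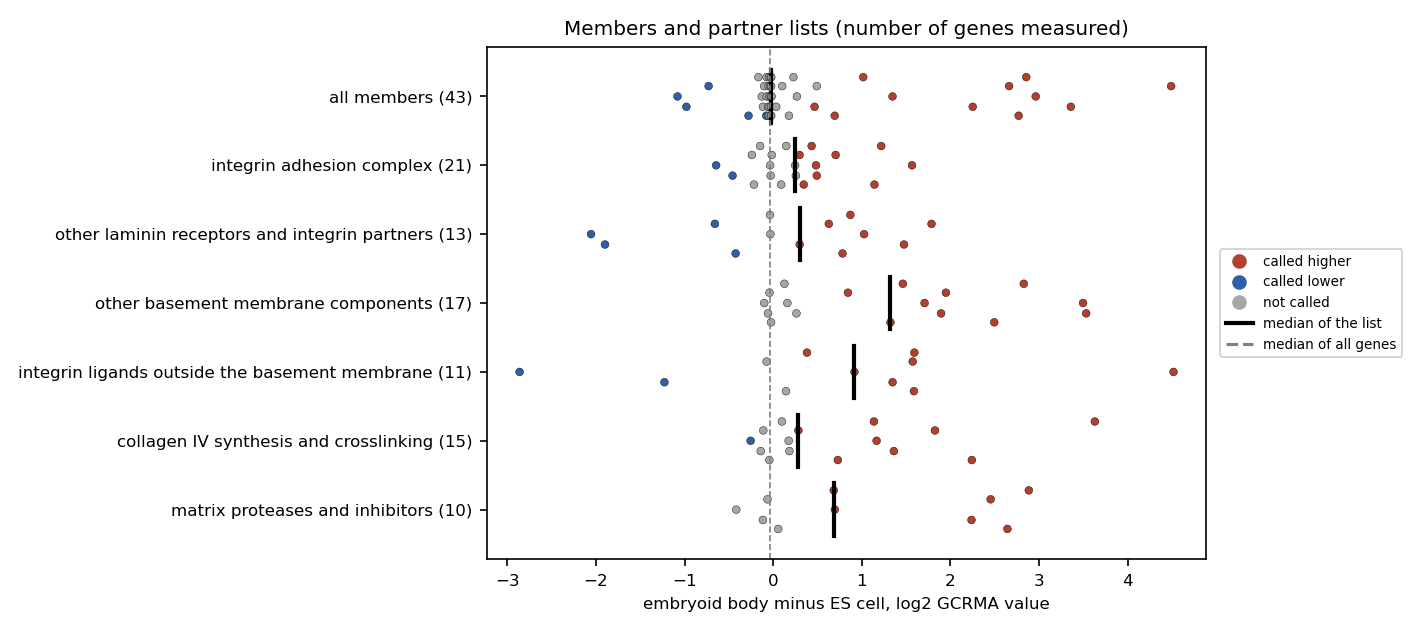
Difference between embryoid bodies and ESCs (horizontal axis, log2 units) of each gene among the 43 members of the integrin and basement membrane set and in 6 lists of genes that work with them, with the number of genes measured in brackets. Red points were called higher in embryoid bodies, blue lower and grey neither; black bars are list medians and the dashed line the median of all genes, -0.04. Other basement membrane components have the highest median, 1.32, with 10 of 17 genes called higher.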

How the data were processed

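RNA of E14 ESCs and embryoid bodies was hybridized to Affymetrix whole-genome mouse arrays. The deposited values are the authors' GCRMA estimates, read here as intensity on a linear scale because they ran from 2.14 to 37448. GCRMA models background from probe sequence, normalizes arrays to one distribution and summarizes each probe set, so that low values gather near a floor and large differences from it may be compressed. Whether all 9 arrays were normalized together is not given in the sources used here. The log2 of each value was taken with no further normalization. Array medians were 4.01, 4.02, 4.04, 4.02 and 4.07 for embryoid bodies and 4.03, 4.04, 4.04 and 4.09 for ESCs. The number of arrays limits the precision.

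The manufacturer's 64 controls were removed, which left 45037 probe sets. The annotation gave 1 gene symbol for 34945 of them, several for 932 and none for 9160. Groups followed the titles in the labels. All probe sets were fitted with limma 3.58.1 in R 4.3.3 (lmFit, eBayes with trend and robust steps, two-sided, Benjamini-Hochberg adjustment over all probe sets). The threshold for a call was an adjusted p under 0.05. The steps were tested on simulated data.

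Array values were given for called members with groups that did not overlap and a log2 difference of at least 1, for subunits and chains of the early basement membrane whatever their values (Itgb1, Itga6, Itga5, Lama1, Lama5, Lamb1, Lamc1, Col4a1, Col4a2, Nid1, Nid2 and Hspg2), and up to 4 called genes were named per partner list. Members whose probe sets differed in call were also named. Lama4, Lamb2, Col4a6, Itga3 and the array values of partner genes were added after their values were seen. The members and lists were chosen with earlier results of these data known. Alternatives were quantile normalization, centring on array medians, no trend or robust step, array weights, a filter on low values, other choices of probe set, a fold of at least 2, an offset of 16, the array numbers as a block or in subsets, and each array left out. List genes without a probe set of their own were not analysed here.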

Additional observations from a re-analysis of the deposited data

Results flagged for a closer look

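Of 88 groups of arrays checked for the named genes, 6 had 1 array that stood apart from the rest by Dixon's test, which chance does in about 1 in 20 groups. For Itga9, EB7 read 6.346 where the other embryoid body arrays read 5.55 to 5.73, and ES10 read 5.3784 where the other ESC arrays read 5.51 to 5.52. For Tns1, ES10 read 7.2562 against 7.19 to 7.20 on the other ESC arrays. For Sdc2, ES10 read 3.2249 against 3.89 to 3.99. For Tnc, ES8 read 2.4804 against 4.06 to 4.08. For Icam1, EB3 read 3.1598 against 3.80 to 3.95 on the other embryoid body arrays.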

How the results depend on the processing

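Over 44 named genes, 916 differences were recomputed, of which 886 kept their direction and their side of the threshold, 22 were no longer called, 1 was newly called and 7 changed sign. All sign changes were in genes that were not called: Itga9 with plain probe sets (-0.13), Itga5 on arrays 7 to 10 (0.0022) and without ES6 (-0.104 to 0.019 with 1 array left out), and Hspg2 on arrays 7 to 10 (0.10) and without EB5, ES2 or ES6 (-0.125 to 0.039 with 1 array left out). Apart from a fold of at least 2, most losses were of Lamb3, which was not called with quantile normalization, with no trend or robust step, with the block, in either subset of arrays or without EB3, EB5, EB7 or any ESC array. Itga6 was not called on arrays 1 to 6 (adjusted p = 0.1) or as a mean over probe sets (adjusted p = 0.0717). Itgb1 was not called as such a mean, while Itga9 was (0.84, adjusted p = 0.000157). Most members not called lie outside these 44 genes, and some were called under other settings. Lamb2 was called higher with centring on array medians, with the low-value filter, as a mean over probe sets and without EB9 or ES6. Called lower were Itga7 and Itgb7 with quantile normalization, Itgb4 with centring, Itgax and Itgb6 with array weights, and Itga4 averaged over probe sets. Of these, Itgb4, Itgax and Itgb6 were near the floor.

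The count of members called higher was 11 to 13 with 1 array left out, and that called lower 4 to 9. The highest count came without EB9, where all genes called lower numbered 4819, in a range of 2345 to 4819, and all called higher 2565 to 2962. The 4 added members lower without EB9, Itgam, Itgax, Itgb6 and Lama3, were near the floor in both groups, and Lama4 and Lamb2 were then called higher. Partner genes called higher were 42 to 46 and lower 7 to 11. Members called lower were 3 with plain probe sets, which 39 members had, and 3 on arrays 1 to 6. A fold of at least 2 left 1 member lower, 30 partner genes higher and 4 lower, and 1069 of all genes higher and 661 lower. Array weights gave 5109 of all genes lower. The cause of these shifts was not tested. No paired analysis was possible because the embryoid body and ESC arrays share no number in the labels. Signal over the floor limits the 16 members under log2 4, for which no statement on absence can be made. Nor does a mean above log2 4 show expression where a probe set read nearly the same on every array.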
